A study of Mus musculus with 8 samples.

Results

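The genes described here encode core and partner subunits of the Polycomb repressive complexes: Ezh2, Ezh1, Eed, Suz12 and Jarid2 of PRC2, and Rnf2, Bmi1, Cbx2, Scml2 and Pcgf6 of PRC1. They were taken by name from a deposited table of expression values, and the transcript entries of each gene ID were summed. All 10 of 10 genes were present, with 50 of the table's 45550 transcript entries, among 17589 genes in all, and 0 were absent. The libraries came from spermatogonia of C57BL/6 mice carrying the GOF/deltaPE-Oct4/GFP reporter, a green fluorescent protein driven by modified Pou5f1 regulatory sequence. Cells were collected by flow sorting of GFP-positive germ cells from testes digested at 6 days post partum. The KO group (4 libraries) was labelled as a conditional knockout of Kdm1a, which encodes a demethylase of histone H3 lysine residues, and the Control group (4 libraries) carried the same reporter. The Cre driver, the deleted exons and the genotype of the controls beyond that word were not given in the sources used here. Nothing in the labels states that the libraries came from separate animals, so p-values measure the spread between these libraries.

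PRC2 methylates histone H3 at lysine residue K27, through EZH2 or its paralog EZH1 as the catalytic subunit, with EED and SUZ12 as the scaffold that activates it. PRC1 ubiquitinates histone H2A through RNF2 (also called RING1B) or RING1, each paired with one of several PCGF proteins: complexes with BMI1 or PCGF2 hold a CBX protein that reads the PRC2 mark, and variant complexes hold RYBP or YAF2 in its place. In the male germline of mice, Polycomb complexes are known for silencing somatic and late germ cell programmes, and SCML2 is a germline partner of PRC1.

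Values are FPKM (fragments divided by transcript length and by the mapped fragments of the library), so levels can be compared between genes of different length. Differences were tested with limma on log2(FPKM + 1) over all genes whose mean level reached 1 FPKM, and those with an adjusted p under 0.05 (Benjamini-Hochberg) are named called. Of 13483 genes tested, 25.3% were called higher and 12.1% lower in KO, and 37.5% in either direction. In 38.6% of genes tested the values of the 2 groups did not overlap. All 10 Polycomb genes were tested: 2 were higher (Ezh2 and Rnf2), 2 were lower (Jarid2 and Cbx2) and 6 were not called. The same 4 genes were those whose groups did not overlap. Both shares are near those of all genes, and the median log2 change was 0.00 for the 10 genes and 0.09 for all genes tested.

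**Figure D1:**
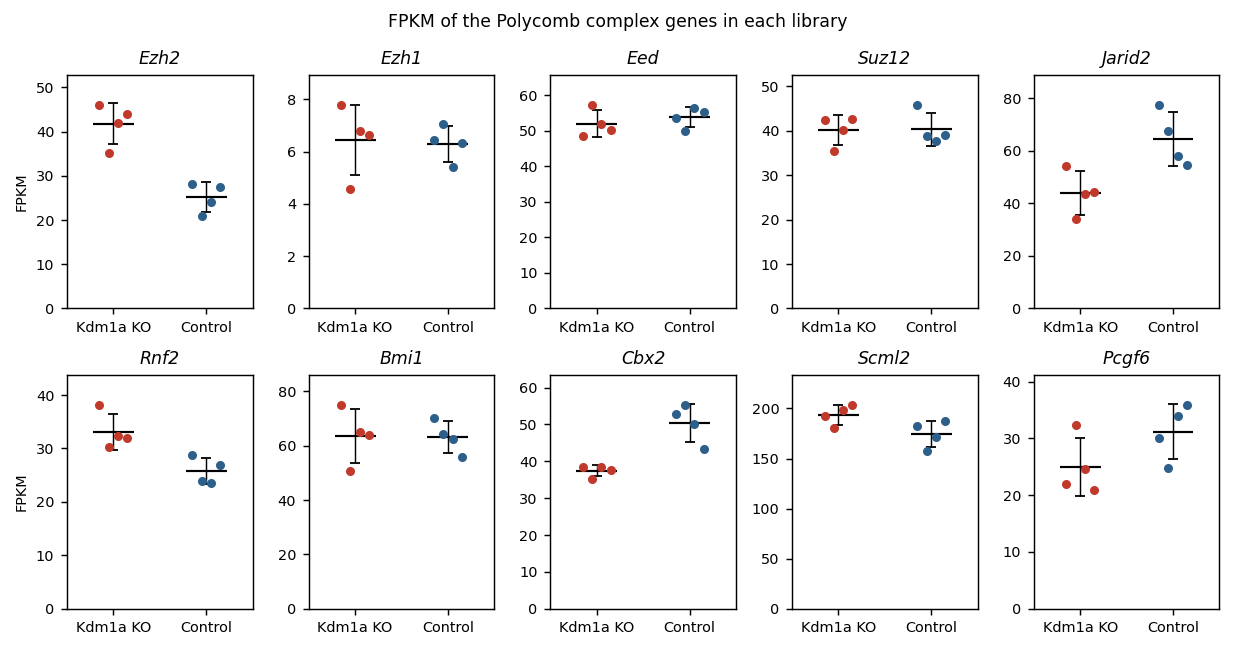
FPKM of the 10 genes by library, with KO on the left and Control on the right of each panel; each point is 1 library, the horizontal line is the mean of 4 and the bar is 1 SD. Points of the 2 groups are separate for Ezh2 and Rnf2, where KO is higher, and for Jarid2 and Cbx2, where KO is lower.

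The Kdm1a entries themselves summed to 14.2, 14.1, 17.3 and 14.9 FPKM in KO libraries 1 to 4, against 53.7, 54.0, 92.0 and 48.1 FPKM in Control libraries 1 to 4 (limma log2 change -1.92, adjusted p = 6.9e-05). Protein-coding Kdm1a entries summed to 7.10 ± 0.767 FPKM in KO and 53.5 ± 20.4 FPKM in Control (SD, n = 4 each, limma log2 change -2.69, adjusted p = 1.3e-05). Its retained-intron entries were at 8.02 ± 1.58 FPKM in KO and 8.39 ± 1.16 FPKM in Control. Depth was not stated, and the steps of low values, searched between 40000000 and 80000000 fragments, matched 45000000 fragments in KO replicate 2 to 67000000 in Control replicate 3. About double these depths, 89750000 to 134250000, matched at least as often in every library, so depth is known only to a factor of 2 and the order of the libraries is not settled. At the smaller values 384 to 32469 fragments per library lay behind each of the 10 genes. KO replicate 2 stood apart: it had 1642 entries at 0, against 506 to 734 in the other 7 libraries. It was the lowest of all 8 libraries in 5 of the 10 genes. The share of all genes in which it was the lowest was not counted, so nothing is read from this count. One small RNA entry, Mir5105, took 29.4% to 52.7% of all FPKM in KO and 61.3% to 77.1% in Control. Every log2 change given below depends on how libraries are scaled, and the sign of some turned with equal library totals. Germ cell markers were present in all libraries (8 of 8 genes, summed level 1418 to 1866 FPKM in KO and 1506 to 1651 FPKM in Control), a sum carried mainly by Uchl1 and Dazl. Of these markers Zbtb16 (22.3 ± 7.21 FPKM in KO and 61.2 ± 7.62 FPKM in Control, limma adjusted p = 0.00089) and Sall4 (46.4 ± 8.94 FPKM in KO and 76.4 ± 5.06 FPKM in Control, adjusted p = 0.00175) were lower in KO with no overlap. Sertoli cell markers summed to 20.4 to 48.4 FPKM in KO and 14.5 to 44.1 FPKM in Control, with Sox9 and Gata1 under 1 FPKM throughout. Clu, the most abundant of them, had 20.3, 11.7, 27.6 and 26.0 FPKM in KO libraries 1 to 4. In Control libraries 1 to 4 Clu had 25.1, 7.54, 7.05 and 9.62 FPKM, and only Control replicate 1 reached the KO range. Clu was not called (limma adjusted p = 0.108). Endothelial markers (4 of 4 in the table) summed to 11.2 to 12.1 FPKM in KO and 3.98 to 5.62 FPKM in Control. Pecam1 (3.91 to 5.34 FPKM in KO and 1.10 to 1.69 FPKM in Control) and Tek (3.09 to 5.34 FPKM in KO and 0.900 to 1.152 FPKM in Control) made this difference, and the values of Cdh5 and Kdr overlapped between groups. Erythroid markers (2 of 4 in the table, mainly Alas2) summed to 1.603 to 2.495 FPKM in KO and 0.282 to 0.760 FPKM in Control. The part of Sertoli, endothelial and erythroid cells, or of the makeup of the germ cells, in the results was not tested. In sorted pools of cells, fewer cells of a type and less RNA per cell cannot be told apart.

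Promoter sequences are shown for Ezh2 and Rnf2, the 2 genes called higher, and for Jarid2, which is called lower and has transcript entries at both of its RefSeq starts. They are the 250 bases upstream of the RefSeq transcription start on build GRCm38.p6, written 5′ to 3′ on the gene's strand, and capitals mark CCAAT or its reverse complement ATTGG. The 4 letter patterns searched on both strands were CCAAT, bound by NF-Y, CACGTG, an E-box, and TTTCCCGC and TTTGGCGC, 2 forms of the E2F motif. A promoter entry was found for 9 of the 10 genes, and Cbx2 was not matched.
Ezh2, chr6:47595031-47595280, minus strand: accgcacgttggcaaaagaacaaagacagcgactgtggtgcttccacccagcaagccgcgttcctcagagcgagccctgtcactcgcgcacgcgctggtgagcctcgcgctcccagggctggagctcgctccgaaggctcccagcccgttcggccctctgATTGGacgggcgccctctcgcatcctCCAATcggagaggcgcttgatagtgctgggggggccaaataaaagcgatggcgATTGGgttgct
Rnf2, chr1:151500992-151501241, minus strand: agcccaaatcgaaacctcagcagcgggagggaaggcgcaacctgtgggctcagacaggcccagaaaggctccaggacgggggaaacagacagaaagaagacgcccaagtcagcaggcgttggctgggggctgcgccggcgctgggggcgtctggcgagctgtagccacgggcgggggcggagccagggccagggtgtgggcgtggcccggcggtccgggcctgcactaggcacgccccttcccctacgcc
Jarid2 upstream start, chr13:44730524-44730773, plus strand: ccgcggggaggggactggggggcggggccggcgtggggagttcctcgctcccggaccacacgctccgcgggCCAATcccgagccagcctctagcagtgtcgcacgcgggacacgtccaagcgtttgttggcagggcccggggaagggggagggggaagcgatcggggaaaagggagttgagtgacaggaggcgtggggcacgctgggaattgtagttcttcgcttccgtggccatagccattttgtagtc
Jarid2 downstream start, chr13:44731021-44731270, plus strand: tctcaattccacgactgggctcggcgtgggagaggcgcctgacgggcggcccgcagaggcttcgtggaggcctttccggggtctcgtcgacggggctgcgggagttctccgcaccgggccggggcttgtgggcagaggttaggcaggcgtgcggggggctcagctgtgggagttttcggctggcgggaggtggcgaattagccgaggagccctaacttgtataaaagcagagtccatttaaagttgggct

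The Ezh2 window held 3 CCAAT matches, with first bases at -90, -64 and -11 from the start, and at least 3 were found in 2.79% of 32851 mouse promoter windows of the same length. At least 1 CCAAT was found in 33.8% of windows. The Jarid2 upstream window held 1, at -179, and the Suz12 window held 1, at -61, together with TTTCCCGC at -219, a word found in 0.895% of windows. Bmi1 held CACGTG at -215, a word found in 6.02% of windows, and TTTGGCGC, found in 0.417%, was in none of the 9 genes' windows. Neither Rnf2 nor the downstream Jarid2 start held any of the 4 words, nor did Ezh1, Eed, Pcgf6 or Scml2. A match describes letters in the window only. The windows printed were GC-rich, at 63.6% for Ezh2, 70.4% for Rnf2, 67.2% for the upstream and 64.8% for the downstream Jarid2 start, against a median of 52.4% over all windows.

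Among the PRC2 genes, the catalytic subunit Ezh2 was higher in KO. It had 46.0, 35.3, 41.9 and 44.0 FPKM in KO libraries 1 to 4, against 28.2, 21.0, 24.1 and 27.5 FPKM in Control libraries 1 to 4. Every KO library lay above every Control library, and library 2 was the lowest in each group. The means were 41.8 ± 4.66 FPKM in KO and 25.2 ± 3.34 FPKM in Control (SD, n = 4 each), a 1.66-fold difference (log2 change 0.71, SE 0.12, limma adjusted p = 0.00142). The call held in 22 of 22 alternative analyses, with log2 changes of 0.58 to 1.41. Ezh2 spans chr6:47530139-47595341 on the minus strand, and 2.75% of its exonic bases overlap the opposite-strand gene Gm26625.

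The paralog Ezh1, a less active methyltransferase that is also found in cells that have stopped dividing, was the least abundant of the 10 genes in both groups. It had 7.78, 4.58, 6.79 and 6.63 FPKM in KO, against 6.43, 7.07, 5.39 and 6.32 FPKM in Control. The Control values lay within the KO range, which KO replicate 2 opened downwards. The log2 change was 0.01, with a 95% confidence interval of -0.31 to 0.34 (limma adjusted p = 0.950). The change of Ezh2 therefore exceeded that of Ezh1 by 0.70 on the log2 scale (exact two-sided permutation test over 70 assignments, p = 0.0286, the smallest such a design allows; adjusted over 3 pairs p = 0.0429). The Ezh2 over Ezh1 ratio of FPKM was 5.92, 7.70, 6.17 and 6.64 in KO, against 4.39, 2.97, 4.47 and 4.35 in Control. The means of this ratio were 6.61 ± 0.788 in KO and 4.04 ± 0.721 in Control (SD, n = 4 each), and the groups did not overlap. The Ezh1 sum in it included noncoding entries, at 3.74 ± 0.747 FPKM in KO and 3.37 ± 0.125 FPKM in Control. Protein-coding Ezh1 entries held 2.70 ± 0.646 FPKM in KO and 2.93 ± 0.703 FPKM in Control. Among them Ezh1-202, of 747 residues, was at 1.25 FPKM in Control replicate 2 and at 0.00922 FPKM or less in every other library. Without KO replicate 1, KO replicate 3, Control replicate 3 or Control replicate 4 the permutation p stayed at 0.0286, the smallest possible, and the adjusted p was 0.0857 because that of another pair was larger.

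Eed, which binds the trimethylated lysine and activates the enzyme, was not called. It had 48.6, 57.2, 52.0 and 50.2 FPKM in KO, against 53.5, 50.0, 56.4 and 55.3 FPKM in Control, and the ranges overlapped. The log2 change was -0.05, with a 95% interval of -0.22 to 0.13 (limma adjusted p = 0.649). Suz12, the scaffold on which accessory subunits assemble, had 42.4, 35.5, 40.2 and 42.7 FPKM in KO, against 45.8, 38.9, 37.7 and 39.0 FPKM in Control. Its interval ran from -0.21 to 0.20 (limma adjusted p = 0.977), so changes of either gene beyond about 0.22 on the log2 scale lay outside the intervals. Parts of both genes overlap opposite-strand genes, 11.8% of exonic bases for Eed with E230029C05Rik and 4.01% for Suz12 with Gm26563.

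Jarid2, a DNA-binding PRC2 partner that helps to recruit the complex and stimulates it, was lower in KO. It had 54.1, 33.9, 43.5 and 44.2 FPKM in KO libraries 1 to 4, against 77.3, 67.6, 58.0 and 54.4 FPKM in Control libraries 1 to 4. The groups were separate, but KO replicate 1 at 54.1 lay just under Control replicate 4 at 54.4. The means were 43.9 ± 8.25 FPKM in KO and 64.3 ± 10.3 FPKM in Control (SD, n = 4 each), 1.46-fold lower (log2 change -0.55, SE 0.15, limma adjusted p = 0.0202). The call was lost without Control replicate 1 (adjusted p = 0.0564) or Control replicate 2 (0.0545) and with small RNAs removed (0.0532), and with equal library totals the sign turned (log2 change 0.17).

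The transcript entries of Jarid2 are given apart, with no test between starts. Jarid2-208, which starts at the downstream promoter shown above, had 18.7, 29.8, 21.1 and 19.6 FPKM in KO, against 23.2, 22.3, 22.1 and 23.4 FPKM in Control, and this most abundant entry alone gave a log2 change of -0.05 (limma adjusted p = 0.794). Entries starting at or within 85 bases of the upstream RefSeq start (Jarid2-201, Jarid2-203 and Jarid2-210) summed to 25.3, 1.21, 17.2 and 18.7 FPKM in KO, against 39.2, 33.8, 28.6 and 22.8 FPKM in Control. The groups overlapped there, since KO replicate 1 lay above Control replicate 4. KO replicate 2 was close to 0 for these entries and the highest library for Jarid2-208. Jarid2-201 alone, at 11.0, 0.688, 12.1 and 13.3 FPKM in KO and 16.8, 16.3, 14.3 and 16.1 FPKM in Control, had groups that did not overlap. The entries Jarid2-208, Jarid2-201 and Jarid2-210 are annotated with the same coding length of 1234 residues. The authors' software divides shared fragments among entries by a model, and no entry was tested apart from the most abundant one.

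Over all 10 genes, 35 of the 50 entries had a mean of at least 1 FPKM, and in 5 of these the KO values lay above all Control values and in 2 below. Groups did not overlap in 26% of all such entries, which number 26612. For Ezh2, Ezh2-201 (746 residues) was at 17.6 ± 1.29 FPKM in KO and 11.1 ± 2.09 FPKM in Control, and Ezh2-204 (742 residues) was at 7.61 ± 0.244 FPKM in KO and 4.24 ± 0.959 FPKM in Control (SD, n = 4 each). Both start at the promoter shown above, and both had groups that did not overlap. Ezh2-202, a shorter form of 704 residues with a start 17370 bases inside the gene, was at 13.6, 4.81, 9.25 and 12.8 FPKM in KO, against 6.33, 4.57, 4.29 and 5.02 FPKM in Control, where KO replicate 2 fell within the Control range.

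**Figure D2:**
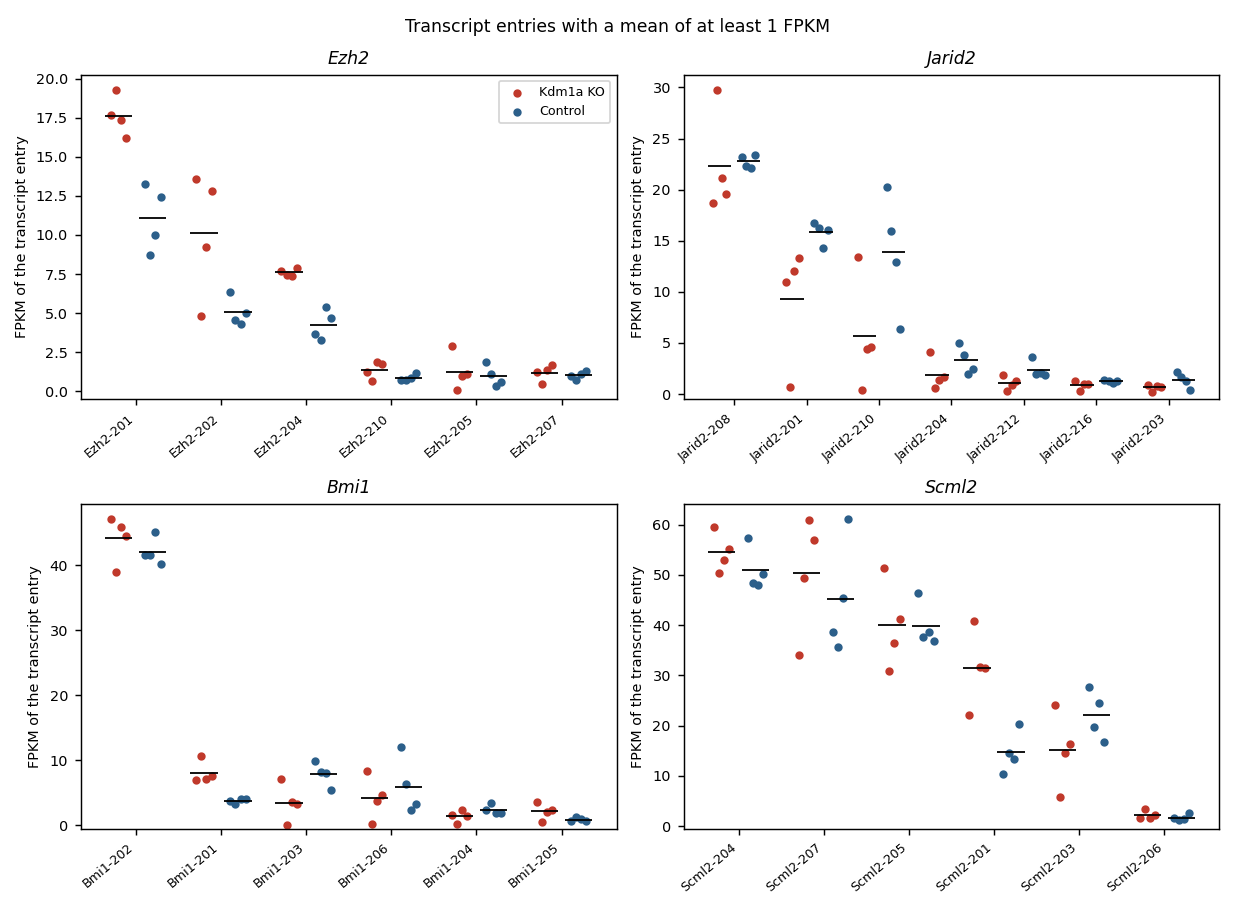
FPKM of each transcript entry with a mean of at least 1 FPKM for Ezh2, Jarid2, Bmi1 and Scml2, KO in red on the left and Control in blue on the right of each name; each point is 1 library and each line the mean of 4. Groups are separate for Ezh2-201, Ezh2-204, Jarid2-201, Bmi1-201 and Scml2-201, and KO replicate 2 is the point near 0 for Jarid2-201 and the highest for Jarid2-208.

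Among the PRC1 genes, Rnf2, the main E3 ligase of the complex, was higher in KO. It had 38.1, 30.2, 32.3 and 31.9 FPKM in KO libraries 1 to 4, against 28.8, 23.9, 23.5 and 26.9 FPKM in Control libraries 1 to 4. The lowest KO library, at 30.2, lay close above the highest Control library, at 28.8. The means were 33.1 ± 3.42 FPKM in KO and 25.8 ± 2.50 FPKM in Control (SD, n = 4 each), a 1.29-fold difference (log2 change 0.35, SE 0.10, limma adjusted p = 0.0204). Rnf2 lost its call after median-ratio scaling (log2 change 0.24, adjusted p = 0.112), after quantile normalization (0.29, adjusted p = 0.0610) and with small RNAs removed (0.22, adjusted p = 0.333). It also lost it without Control replicate 2 (adjusted p = 0.0553) or Control replicate 3 (adjusted p = 0.0624).

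Ring1, the alternative ligase, was at 4.15 ± 0.614 FPKM in KO and 5.01 ± 0.482 FPKM in Control (SD, n = 4 each) and was not called (log2 change -0.23, limma adjusted p = 0.141). The change of Rnf2 exceeded that of Ring1 by 0.58 on the log2 scale (exact two-sided permutation test, p = 0.0286; adjusted over 3 pairs p = 0.0429). The Rnf2 over Ring1 ratio was 8.54, 7.87, 9.29 and 6.59 in KO, against 6.15, 5.22, 4.54 and 4.78 in Control, and the groups did not overlap. Without KO replicate 1, KO replicate 3, Control replicate 3 or Control replicate 4 the permutation p of Rnf2 over Ring1 was 0.0571 (adjusted p = 0.0857). A ratio within a library does not depend on how libraries are scaled, apart from the pseudocount in the test. Ratios of this kind show unequal change of the paralogs and do not show which of them moved.

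**Figure D3:**
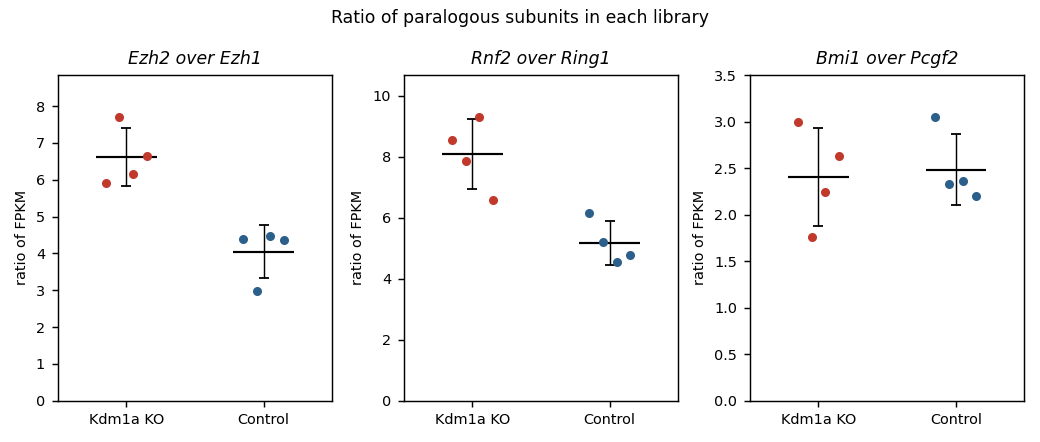
Ratio of FPKM within each library for 3 pairs of paralogous subunits, KO on the left and Control on the right; each point is 1 library, the line is the mean of 4 and the bar is 1 SD. Ezh2 over Ezh1 averaged 6.61 in KO and 4.04 in Control and Rnf2 over Ring1 averaged 8.07 in KO and 5.17 in Control, with no overlap in either, and the Bmi1 over Pcgf2 points overlap.

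Bmi1, the PCGF protein best known for sustaining self-renewal through repression of the Cdkn2a locus, was not called. It had 74.8, 50.8, 64.9 and 64.0 FPKM in KO, against 70.2, 64.3, 62.3 and 55.7 FPKM in Control. KO libraries held both the highest value and the lowest. The log2 change was 0.00, with a 95% interval of -0.27 to 0.28 (limma adjusted p = 0.989). Its paralog Pcgf2 was at 26.8 ± 2.42 FPKM in KO and 25.6 ± 1.97 FPKM in Control (SD, n = 4 each, log2 change 0.06, limma adjusted p = 0.624). The Bmi1 over Pcgf2 ratio was 2.41 ± 0.527 in KO and 2.49 ± 0.382 in Control (difference of the changes -0.06, exact permutation test, adjusted p = 0.8). Within Bmi1, the upstream entry Bmi1-201 was at 7.04, 10.8, 7.07 and 7.60 FPKM in KO, against 3.72, 3.31, 4.05 and 4.08 FPKM in Control, with no overlap. Bmi1-202, which encodes the same 324 residues and starts 3354 bases downstream, was the main entry, at 44.2 ± 3.56 FPKM in KO and 42.1 ± 2.06 FPKM in Control.

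Cbx2, the chromodomain protein that compacts chromatin in canonical PRC1 and is needed for testis development in mice, was lower in KO. It had 38.4, 35.3, 38.3 and 37.6 FPKM in KO libraries 1 to 4, against 52.8, 55.2, 50.1 and 43.5 FPKM in Control libraries 1 to 4. The KO libraries were tightly grouped and all lay below the lowest Control library. The means were 37.4 ± 1.45 FPKM in KO and 50.4 ± 5.06 FPKM in Control (SD, n = 4 each), 1.35-fold lower (log2 change -0.42, SE 0.09, limma adjusted p = 0.00500). With equal library totals the sign turned (log2 change 0.29, adjusted p = 0.282). In the other alternatives Cbx2 kept its call, and Cbx2-201, with 98.8% of the FPKM of the gene in KO and 98.6% in Control, carried the difference.

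Scml2, an X-linked gene for a germline partner of PRC1, was the most abundant of the 10 genes. It had 192.7, 180.4, 198.3 and 203.1 FPKM in KO, against 182.1, 157.2, 171.3 and 187.5 FPKM in Control, and the ranges overlapped. The log2 change was 0.15, with a 95% interval of -0.04 to 0.34 (limma adjusted p = 0.198). Its entries were less even: Scml2-201, of 905 residues, had 22.1, 40.8, 31.7 and 31.4 FPKM in KO, against 10.4, 14.5, 13.4 and 20.3 FPKM in Control. Those groups did not overlap, although KO replicate 1 was close to Control replicate 4. Scml2-203, of 969 residues, was at 15.2 ± 7.54 FPKM in KO and 22.1 ± 4.88 FPKM in Control, and the main entry Scml2-204, of 827 residues, was at 54.5 ± 3.88 FPKM in KO and 51.0 ± 4.34 FPKM in Control. A noncoding entry of 517 bases, Scml2-207, was at 50.3 ± 11.9 FPKM in KO and 45.2 ± 11.3 FPKM in Control. It held 25.9% of the gene's FPKM in KO and 25.8% in Control. Protein-coding entries of Scml2 summed to 143.3 ± 12.0 FPKM in KO and 129.3 ± 9.65 FPKM in Control.

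Pcgf6, the PCGF protein that defines the variant complex PRC1.6, had 21.95, 32.3, 24.6 and 20.8 FPKM in KO, against 30.0, 24.8, 33.9 and 35.8 FPKM in Control. KO replicate 2 lay among the Control libraries and the other 3 KO libraries lay below all of them. The log2 change was -0.32, with a 95% interval of -0.66 to 0.03 (limma adjusted p = 0.135). Without KO replicate 2 the gene was called lower (log2 change -0.44, adjusted p = 0.0187), as it was after median-ratio scaling (adjusted p = 0.0294), after quantile normalization (adjusted p = 0.0440) and with small RNAs removed (adjusted p = 0.00760).

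In order of level, Scml2 stood above all other genes in both groups and Ezh1 stood below all others, with no overlap between libraries at either end. In KO the order between them was Bmi1, Eed, Jarid2, Ezh2, Suz12, Cbx2, Rnf2 and Pcgf6, at mean levels of 63.6 down to 24.9 FPKM, and each neighbouring pair overlapped. In Control the order was Jarid2, Bmi1, Eed, Cbx2, Suz12, Pcgf6, Rnf2 and Ezh2, at mean levels of 64.3 down to 25.2 FPKM, and neighbours overlapped except Suz12 and Pcgf6. Ezh2 was thus the fifth gene in KO and the ninth in Control, and Jarid2 the fourth in KO and the second in Control.

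Scaling moved the members together. For the values as deposited, all genes had a median log2 change of 0.09. That median was -0.01 after median-ratio scaling, -0.02 after either quantile normalization or removal of small RNAs, and 0.74 when library totals were made equal. Relative to that median, Ezh2 changed by 0.62, Rnf2 by 0.26, Jarid2 by -0.64 and Cbx2 by -0.51 as deposited. Subtracting the median removes any factor that shifts all genes of a library alike, so likeness of these relative changes between scalings is built in and is no check of direction. As given, the signs of Jarid2 and Cbx2 turned with equal totals.

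**Figure D4:**
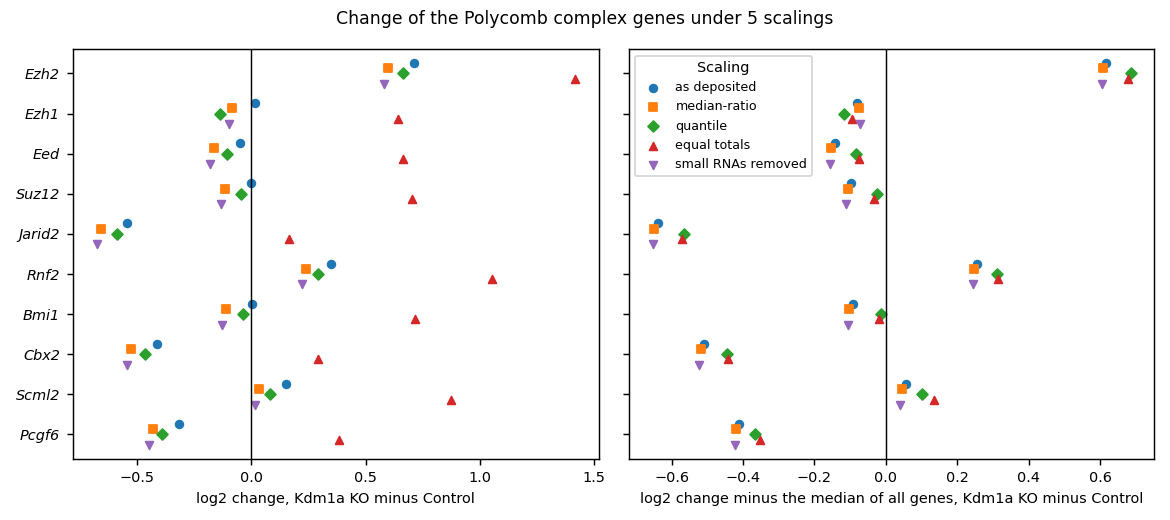
log2 change (KO minus Control) of the 10 genes under 5 scalings of the libraries, as given (left) and after subtracting the median of all genes (right); each marker is 1 scaling. On the left the markers for equal totals lie to the right, with a median of all genes of 0.74, and on the right the 5 markers of each gene lie close together.

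A further 46 genes of the Polycomb system, from a list of PRC2 accessory subunits, other PRC1 subunits, the PR-DUB deubiquitinase and the K27 demethylases, were all tested: 4 were higher in KO, 7 were lower and 35 were not called, where 25.3% of all genes tested were higher and 12.1% lower. Their median log2 change was -0.17, against 0.09 for all genes. Of the 46, 33 lay below 0, and the share of all genes below 0 was not counted. The median of the 46 was 0.52 with equal totals, against 0.74 for all genes, and -0.28 after median-ratio scaling, against -0.01. With equal totals 22 were higher and 0 lower, and after median-ratio scaling 2 were higher and 16 lower. Without Control replicate 1 or Control replicate 3 the counts were 2 higher and 3 lower, without KO replicate 1 they were 2 and 9, without KO replicate 2 they were 6 and 9, and without KO replicate 3 they were 2 and 4. In the PRC2 accessory list 2 of 9 were higher and 2 lower. Ezhip, listed under its older name AU022751, is a germline protein that inhibits PRC2. It had 21.7, 21.5, 21.3 and 23.4 FPKM in KO, against 12.7, 10.9, 13.1 and 11.4 FPKM in Control, with no overlap (1.83-fold, log2 change 0.82, limma adjusted p = 9.0e-05). This call held in 22 of 22 alternatives. Phf19, a Polycomb-like protein that reads methylated lysine K36 of H3, was at 3.52 ± 0.326 FPKM in KO and 2.17 ± 0.378 FPKM in Control (log2 change 0.52, adjusted p = 0.00661), and its protein-coding entries alone were not called (adjusted p = 0.183). Mtf2, another Polycomb-like protein, was at 57.1 ± 4.60 FPKM in KO and 71.3 ± 5.69 FPKM in Control (log2 change -0.31, adjusted p = 0.0205). The histone chaperone Rbbp4 was at 73.3 ± 3.94 FPKM in KO and 88.6 ± 5.25 FPKM in Control (log2 change -0.27, adjusted p = 0.0205). Rbbp4 and Mtf2 had the opposite sign with equal totals, and Mtf2 also for its protein-coding entries alone (log2 change 0.20). Rbbp4 lost its call without Control replicate 1 or 3 or KO replicate 3 or 4 (adjusted p 0.0528 to 0.0655), and Mtf2 without Control replicate 3 or 4 (0.0526 and 0.0538).

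Among 9 other genes of canonical PRC1, 1 was higher and 0 lower. Cbx6, a chromodomain protein, was at 6.22 ± 0.457 FPKM in KO and 4.94 ± 0.308 FPKM in Control (log2 change 0.28, adjusted p = 0.0313). It lost its call in 13 of 22 alternatives, among them each omission of 1 library except Control replicate 2 and KO replicate 2. Of 18 variant PRC1 genes 1 was higher and 2 lower. Kdm2b, which brings PRC1 to unmethylated CpG islands, was at 35.1 ± 1.08 FPKM in KO and 49.7 ± 6.25 FPKM in Control (log2 change -0.48, adjusted p = 0.00425; with equal totals 0.23). Its most abundant entry alone was not called (log2 change -0.27, adjusted p = 0.0553). E2f6, a DNA-binding subunit of PRC1.6, was at 41.4 ± 2.29 FPKM in KO and 49.3 ± 3.56 FPKM in Control (log2 change -0.25, adjusted p = 0.0351; with equal totals 0.46), and it lost its call without Control replicate 1, 3 or 4 or KO replicate 1, 3 or 4 (adjusted p 0.0759 to 0.0929). Yaf2 was at 17.7 ± 1.11 FPKM in KO and 14.6 ± 0.775 FPKM in Control (log2 change 0.26, adjusted p = 0.0266). It lost its call in 12 of 22 alternatives, among them without Control replicate 1, 2 or 3 or KO replicate 1 or 3.

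In the PR-DUB list, the complex that removes ubiquitin from H2A, 0 of 8 were higher and 2 lower, the forkhead factors Foxk1 (5.01 ± 1.30 FPKM in KO and 8.01 ± 1.12 FPKM in Control, adjusted p = 0.0209) and Foxk2 (11.1 ± 2.89 FPKM in KO and 17.4 ± 2.08 FPKM in Control, adjusted p = 0.0189). Both had the opposite sign with equal totals (log2 change 0.03 and 0.05). Foxk1 lost its call without Control replicate 1 or 3 (adjusted p = 0.0607 and 0.0575), and Foxk2 without Control replicate 1 or KO replicate 3 (adjusted p = 0.0530 and 0.0528). Of the K27 demethylases, Kdm6b had 12.8, 8.05, 12.1 and 12.7 FPKM in KO, against 21.2, 22.7, 18.97 and 16.1 FPKM in Control, and the groups did not overlap (1.73-fold lower, log2 change -0.75, limma adjusted p = 0.00508; with equal totals -0.07, adjusted p = 0.796). Kdm6a was at 5.81 ± 1.17 FPKM in KO and 7.12 ± 0.959 FPKM in Control and was not called (adjusted p = 0.184). Over the 8 libraries, the profiles of log2(FPKM + 1) most like that of Ezh2 among these 46 genes were those of Phf19 (Pearson r = 0.933), Ezhip (0.932) and Max (0.807). These are descriptions over 8 libraries that share the contrast between KO and Control.

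**Figure D5:**
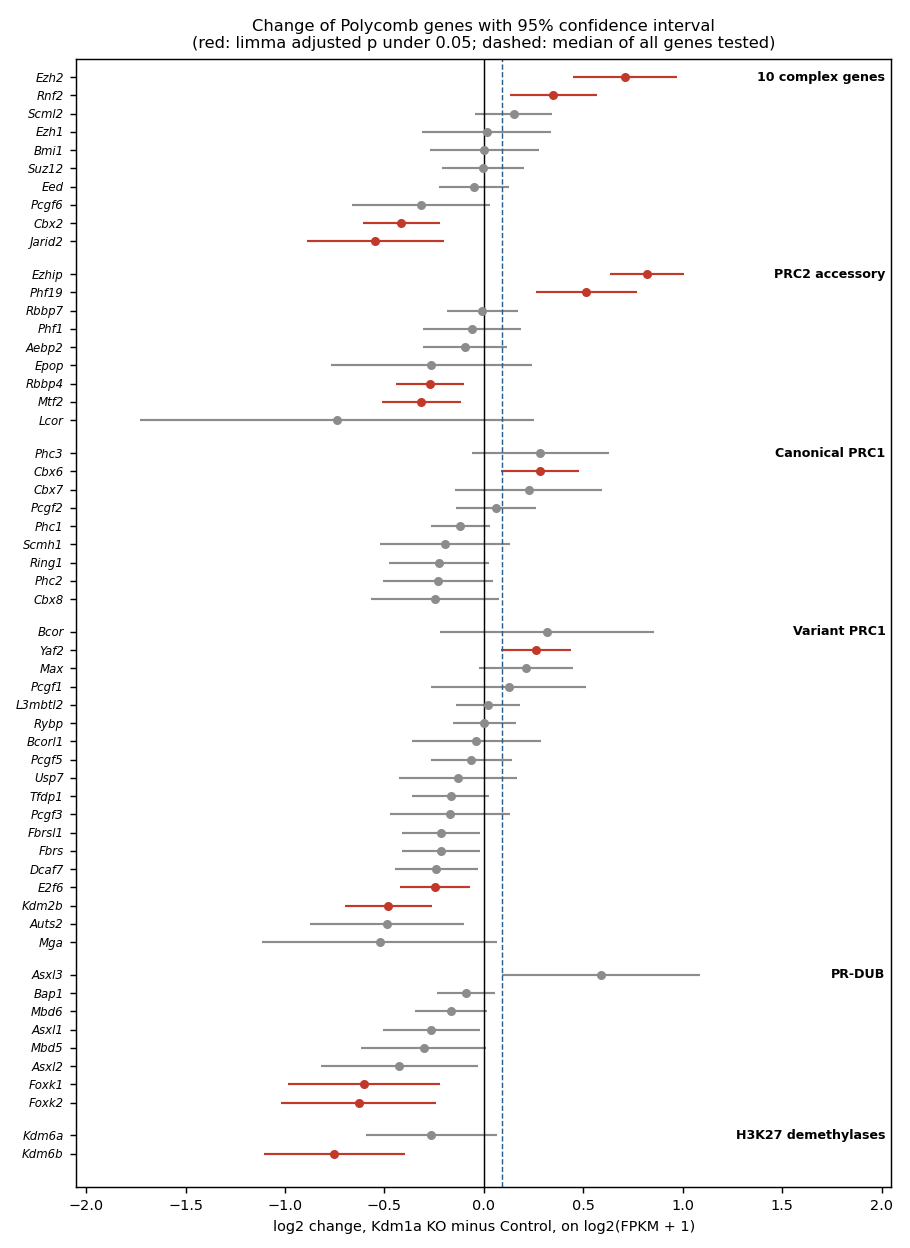
log2 change (KO minus Control) on log2(FPKM + 1) with its 95% confidence interval for the 10 genes and the 46 further genes, grouped by complex; red marks limma adjusted p under 0.05 and the dashed line is the median of all genes, 0.09. Ezhip and Ezh2 lie farthest to the right of the called genes and Kdm6b and Foxk2 farthest to the left.

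Polycomb complexes silence developmental regulators, and 51 such genes (the Hox clusters, the Cdkn2a and Cdkn2b cell cycle inhibitors and lineage factors) were looked up. Of these, 27 were found, and 19 of these did not reach a mean of 1 FPKM. The highest mean over the 8 libraries among the 19 was 0.868 FPKM. Of the 8 tested, 5 were called higher and 1 lower, where 25.3% and 12.1% of all genes were. Nothing is read from this count, since a gene that is low in one group can pass the filter through the other. Hoxb7, a homeobox factor of axial patterning, had 6.60, 8.98, 6.58 and 5.96 FPKM in KO, against 1.17, 1.33, 2.44 and 1.93 FPKM in Control (4.10-fold, log2 change 1.57, limma adjusted p = 0.000141). Hoxb13 was at 1.80 ± 0.266 FPKM in KO and 0.519 ± 0.0904 FPKM in Control and passed the filter through KO. Cdkn2b was at 3.92 ± 0.389 FPKM in KO and 1.98 ± 0.290 FPKM in Control (log2 change 0.73, adjusted p = 0.000779), and Hoxd8 at 2.08 ± 0.440 FPKM in KO and 1.03 ± 0.349 FPKM in Control (log2 change 0.60, adjusted p = 0.0142). Hoxd8 was not called after quantile normalization (log2 change 0.42, adjusted p = 0.0554). Named after their values were seen, the remaining calls were Cdkn2a, at 62.6, 100.4, 68.4 and 63.9 FPKM in KO and 53.4, 50.4, 55.5 and 54.4 FPKM in Control (adjusted p = 0.0383), and T, the mesoderm factor brachyury, at 1.24 ± 0.343 FPKM in KO and 3.99 ± 2.60 FPKM in Control (adjusted p = 0.0220). For Cdkn2a, KO replicate 2 lay well above the other KO libraries. Neither gene was examined for outliers or under the alternatives.

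PRC1.6, the complex of Pcgf6, E2f6, Mga and L3mbtl2, represses germ cell genes in mouse embryonic stem cells, and 14 such genes were tested: 5 were higher in KO, 0 were lower and 9 were not called, with a median log2 change of 0.19 against 0.09 for all genes. Of all genes 25.3% were called higher and 37.5% in either direction, so the share of calls is near the background. The calls were Hormad1, Sycp3, Smc1b and Stag3 and, named after its values were seen, Sycp1, all proteins of the meiotic chromosome axis, synaptonemal complex or cohesin. Smc1b had 91.7, 78.5, 74.7 and 60.3 FPKM in KO, against 47.2, 39.0, 39.4 and 38.7 FPKM in Control (log2 change 0.87, limma adjusted p = 0.000772). Stag3 had 196.4, 285.6, 198.1 and 209.4 FPKM in KO, against 117.7, 124.4, 136.3 and 124.1 FPKM in Control (log2 change 0.80, adjusted p = 0.00113), and KO replicate 2 stood above the other KO libraries. Other targets on the list, such as Ddx4 (186.6 ± 4.06 FPKM in KO and 197.8 ± 16.8 FPKM in Control) and Dazl (448.3 ± 17.3 FPKM in KO and 399.7 ± 28.1 FPKM in Control), were abundant in both groups and were not called. Of the other subunits of PRC1.6, Mga, a large DNA-binding protein, had 62.0, 23.3, 50.5 and 49.7 FPKM in KO, against 71.4, 70.8, 59.8 and 53.1 FPKM in Control (adjusted p = 0.146), and L3mbtl2 had a log2 change of 0.02 (adjusted p = 0.843).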

How the data were processed

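RNA of 8 libraries (4 KO and 4 Control) was measured by stranded mRNA sequencing, per the labels' protocols. The values used are FPKM per transcript entry that the authors deposited; TopHat, Bowtie, Cufflinks, Cuffdiff and build mm10 are named in the submitters' processing notes, and whether counting used strand was not stated there. Cufflinks divides shared fragments among entries, so sums per gene are firmer than single entries. Here, entries were summed by gene ID. Genes averaging 1 FPKM or more were fitted with limma 3.58.1 (R 4.3.3) on log2(FPKM + 1), with group as the single term and an intensity trend, after a test on simulated data. A pseudocount of 1 understates the change of low genes. Fold changes are ratios of mean FPKM. Entry types, lengths and positions came from GENCODE on GRCm38, the same build as mm10. Depth is not stated: it was estimated from the steps of low FPKM values, of which 62.0% to 66.8% came out whole within 0.1 fragment (66.1% to 72.2% at about double the depth), too few for a count test. Of the other genes, every called one of the Polycomb lists was named, up to 4 of smallest p in each target list, and up to 2 where none was called. The 10 genes and all lists were chosen with earlier results of these data known, and 1 listed gene is not reported here. Pseudocount, filter, scaling, entry choice, error model and each library were varied.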

Additional observations from a re-analysis of the deposited data

Results flagged for a closer look

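In 9 cases 1 library stood apart from the other 3 of its group by Dixon's test, among 72 groups of 4 examined. Chance gives such a flag in about 1 group in 20. Cdkn2a, T and Sycp1 were not among the groups examined. Of the 10 Polycomb genes 1 was involved, Suz12, where Control replicate 1 was high at 45.78 FPKM. For the ratio of Ezh2 over Ezh1, Control replicate 2 was low at 2.966, and the difference between groups was in the same direction without it. Kdm6b was low in KO replicate 2, at 8.045 FPKM. For Kdm1a itself, Control replicate 3 was high at 91.95 FPKM. Among the listed targets, Hoxd8 was low in Control replicate 2 (0.5129 FPKM) and Smc1b high in Control replicate 1 (47.22 FPKM). Stag3 was high in KO replicate 2 (285.6 FPKM), and Hormad1 was high in KO replicate 2 (122.2 FPKM) and low in Control replicate 2 (32.89 FPKM).

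KO replicate 2 also differed in its short entries. Of 20 entries under 700 bases among the 10 genes, it was the lowest of 8 libraries in 16. Over 4366 genes such entries held a mean of 17.2% of the gene sum in KO replicate 2, against 17.9% to 18.4% in the other KO libraries and 18.1% to 18.7% in Control libraries. Whether this bears on the Jarid2 entries was not tested.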

How the results depend on the processing

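Over 22 alternatives, Ezh2 and Ezhip kept their direction and call, and Kdm1a too. Genes called higher numbered 3417 as reported, 2164 with a filter of mean 5 FPKM, 9549 with equal totals, 2240 with small RNAs removed and 2087 at adjusted p under 0.01; genes called lower numbered 1635, and 2648 after quantile normalization, 151 with equal totals and 848 at 0.01. Leaving out 1 library gave 2621 to 3816 higher and 1165 to 2034 lower. Of the 10 Polycomb genes 2 were higher as reported, 1 after median-ratio scaling, after quantile normalization, with small RNAs removed or at 0.01, and 7 with equal totals; 2 were lower, 1 for the most abundant entry or at 0.01 and 0 with equal totals. Without 1 library the counts were 1 to 2 higher and 1 to 3 lower. Of the 46 further genes 4 were higher as reported, 2 after median-ratio scaling, with small RNAs removed, with the replicate block or at 0.01, 1 after quantile normalization, for the most abundant entry or for protein-coding entries, and 22 with equal totals; 7 were lower, 16 after median-ratio scaling or quantile normalization, 2 at 0.01 and 0 with equal totals. Without 1 library these counts were 2 to 6 higher and 3 to 9 lower.

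The sign turned with equal totals, where the median of all genes was 0.74, for Eed (0.66), Suz12 (0.70), Jarid2 (0.17), Cbx2 (0.29), Pcgf6 (0.38), Ring1 (0.37), Rbbp4 (0.45), Mtf2 (0.40), Kdm2b (0.23), E2f6 (0.46), Foxk1 (0.026) and Foxk2 (0.048). Mtf2 was also at 0.38 for its most abundant entry and 0.20 for protein-coding entries. Values near 0 crossed it: Ezh1 was at -0.086 after median-ratio scaling or for protein-coding entries, -0.14 after quantile normalization and -0.097 once small RNAs were removed, and -0.072 to 0.15 without 1 library; Suz12 at 0.035 for protein-coding entries and -0.035 to 0.057 without 1 library. Under median-ratio scaling, quantile normalization and small RNA removal, Bmi1 was at -0.11, -0.036 and -0.13, and without 1 library at -0.079 to 0.10. Under the same 3 scalings Pcgf2 was at -0.051, -0.019 and -0.068, with -0.12 for its most abundant entry and -0.043 for protein-coding entries. The causes were not tested.

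For the pair differences, adjusted together, leaving out KO replicate 1, KO replicate 3, Control replicate 3 or Control replicate 4 took the adjusted exact permutation p to 0.0857 for Ezh2 over Ezh1 (0.57 to 0.74 over all omissions of 1 library) and Rnf2 over Ring1 (0.52 to 0.66). Bmi1 minus Pcgf2 turned to 0.18 for the most abundant entries (adjusted p = 0.0286), 0.078 without KO replicate 2 and 0.040 without Control replicate 1, and lay at -0.17 to 0.078 without 1 library. Same-numbered libraries correlated at 0.224, -0.119, -0.133 and -0.0928 in their deviations from the group means. The other pairs of a KO and a Control library correlated at -0.333 to 0.250. These values show no pairing by number, and they cannot exclude one. With the replicate block, 2983 genes were higher and 1408 lower, and the 10 genes kept their calls. Hoxd8 was then not called (adjusted p = 0.0544). The pair differences of 0.70 and 0.58 then had adjusted exact permutation p = 0.188, the smallest that 4 blocks allow for them here, so this test could not pass the threshold and says nothing of stability.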
